A study of Homo sapiens with 12 samples.

Results

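Secretory and membrane proteins enter the endoplasmic reticulum (ER) through the SEC61 channel, the translocon, and many receive N-linked glycans there from the oligosaccharyltransferase as they emerge. In the set studied here, SEC61A1 encodes the pore-forming subunit of the channel and SEC61B its small beta subunit. SSR2 and SSR3 encode the beta and gamma subunits of the translocon-associated protein (TRAP) complex, which assists the insertion of some signal sequences. RPN1, RPN2, DDOST, DAD1 and TMEM258 encode non-catalytic subunits of the oligosaccharyltransferase. The mRNAs of such proteins are themselves largely translated on the ER surface. The 9 genes were followed through their 3' ends. Because the tables name positions and no genes, an end was assigned by position. All sites on the gene's strand within 1000 nt of the hg19 position taken for its 3' end were summed. The proximal and distal ends of SSR3, 2859 nt apart, were kept separate. This gave 10 ends, out of 486123 groups of sites formed in the same way in the pull-down table and 110001 in the fraction table. Averaged over the libraries of either table, each of the 9 genes reached 50 reads, and 2 of the 10 ends, SSR3 distal and TMEM258, had a pull-down library with fewer than 50 reads.

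The RNA came from HEK293T, a human embryonic kidney cell line. A STAU1-knockout line, made with a paired Cas9 nickase, transiently expressed either STAU1-FLAG (Staufen1, a protein that binds double-stranded RNA) or FLAG-GFP, and polyadenylated RNA was sequenced before (input) and after pull-down on anti-FLAG beads (IP), with 2 replicates in each of 4 groups. All 8 of these libraries thus came from cells that lack their own STAU1, and STAU1 was present only as the transiently expressed tagged protein. Separately, cytoplasmic and polysomal RNA was sequenced from untransfected cells of the knockout line and of its isogenic control, labelled wild type (WT), with 1 library for each of the 4 combinations and 1 line per genotype. The labels do not say whether replicates were separate cultures, so the spread behind the p-values is that of these libraries and may be technical.

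Reads were counted by 3'READS+, which sequences the last stretch of each polyadenylated RNA, so a transcript gives a read at its end whatever its length and levels can be set side by side between genes. The pull-down libraries held 1245270 to 9655646 reads, the GFP IP libraries being the shallowest, and the fraction libraries 2799226 to 3483937. Of the STAU1 inputs, replicate 1 covered 99156 sites with 5567893 reads and replicate 2 covered 175098 with 9655646. The end of STAU1 itself and cell type markers were not analysed here.

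Most reads of each end lay at a single site. The leading site, the site with the most reads, was the same position in both tables for each of the 10 ends. In 9 of them it lay 0 to 20 nt from the position used to assign the end, for example at 127790525 for SEC61A1 (chromosome 3, plus strand), 155978840 for SSR2 (chromosome 1, minus strand) and 35870020 for RPN2 (chromosome 20, plus strand). The members were chosen with earlier results of these data known, so this closeness does not check the gene assignment. DDOST was the exception: its leading site, 20978681 (chromosome 1, minus strand), lay 421 nt upstream of the assigned position. A further site lay 371 nt downstream of this leading site, at 20978310. In the pull-down table the leading site held between 88.1% (SSR3 distal) and 99.98% (SSR2) of an end's reads. The leading site of SEC61B was at 101992894 (chromosome 9, plus strand), and those of TMEM258, DAD1 and RPN1 were at 61556603, 23033807 and 128338819 on the minus strands of chromosomes 11, 14 and 3. SSR3 had its proximal leading site at 156260796 and its distal one at 156257937 (chromosome 3, minus strand).

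These mRNAs were abundant and spanned a wide range of levels. In the STAU1 input RPN2 was the highest, at 3037 ± 258 CPM (reads scaled to equal library size with TMM factors; SD, n = 2), followed by RPN1 at 830 ± 84.8, SSR2 at 730 ± 76.0, DAD1 at 593 ± 84.2 and SEC61A1 at 556 ± 0.892. SSR3 proximal stood at 412 ± 17.2, SEC61B at 186 ± 31.1, DDOST at 176 ± 30.5 and TMEM258 at 110 ± 29.2, with SSR3 distal the lowest at 29.6 ± 3.92. The library values of neighbours in this order overlapped for RPN1 and SSR2, for DAD1 and SEC61A1, and for SEC61B and DDOST. For SSR2 and DAD1 the library values were apart, but the ranges of mean ± SD overlapped. The median tested end had 3.37 CPM over the 8 libraries, and 90.2% of tested ends lay below the lowest of these members.

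The lysates of STAU1-FLAG and FLAG-GFP cells held these mRNAs at levels that the test did not separate. None of the 10 ends was called higher or lower in the STAU1 input than in the GFP input, where 0.0113% of all 26606 tested ends were called higher and 0% lower, and 0.0366% and 0% of those with a mean of 50 reads or more (edgeR quasi-likelihood, adjusted p under 0.05; 629 and 634 of all ends had an unadjusted p under 0.05, and DESeq2 called none of the 10). The lowest value was that of TMEM258, with 131 and 89.4 CPM in the STAU1 inputs against 199 and 173 in the GFP inputs, a log2 difference of -0.76 ± 0.25 (SE). DDOST, with 154 and 197 CPM against 252 and 256, had -0.53 ± 0.20. Neither passed the test (edgeR adjusted p = 1 for each). SSR3 distal was next, with 26.8 and 32.4 CPM against 41.9 and 39.0 (log2 -0.45 ± 0.26, not called). DAD1 had the highest value, 0.17 ± 0.19, and SEC61A1 had 0.05 ± 0.17, neither of them called.

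The question asked with the pull-downs was which mRNA ends are held with STAU1 above the input and above an unrelated tagged protein. In the STAU1 pull-down 3 of the 10 ends were higher than their input, SSR3 distal, SEC61A1 and RPN2, and 6 were lower, TMEM258, SEC61B, SSR3 proximal, DAD1, DDOST and RPN1. SSR2 was not called. Of all tested ends 3.89% were called higher and 4.07% lower, and of the 8204 that averaged 50 reads or more, a closer match in abundance to these members, 9.11% and 12%. In the GFP pull-down 1 end was higher, RPN2, and 6 were lower, TMEM258, DDOST, SEC61B, SSR3 proximal, RPN1 and DAD1, against 2.57% and 5.12% of all tested ends and 6.53% and 16.2% of the abundant ones. The median log2 change of the 10 ends was -0.76 with STAU1 and -0.87 with GFP, against 0.12 and -0.13 over all tested ends and -0.10 and -0.34 over the abundant ones.

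**Figure D1:**
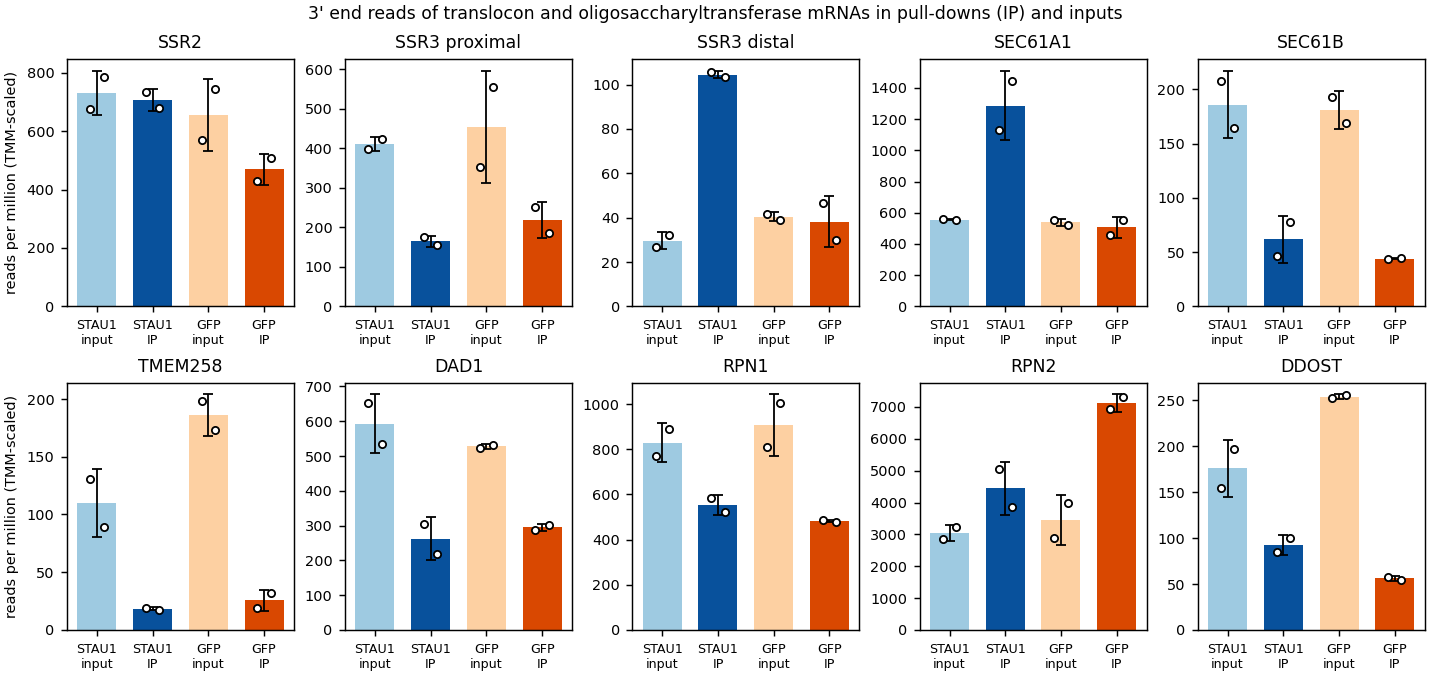
Levels of the 10 ends in CPM (TMM-scaled, linear axes from 0) in the STAU1 and GFP inputs and pull-downs; bars are means of 2 libraries, error bars SD, points the libraries. SEC61A1 and SSR3 distal stand highest in both STAU1 IP libraries, RPN2 in both GFP IP libraries, and TMEM258 and SEC61B are low in all 4 pull-down libraries.

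SEC61A1, the pore-forming subunit, was the clearest case of recovery with STAU1 and not with GFP. It had 1130 and 1444 CPM in the STAU1 IP libraries (7516 and 9038 reads) against 557 and 555 in their inputs, and 458 and 554 CPM in the GFP IP libraries (672 and 776 reads) against 555 and 522 in theirs. Both STAU1 IP libraries lay above all 6 others, among which the GFP IP and GFP input overlapped. The log2 change over input was 1.21 ± 0.17 with STAU1 (SE; edgeR, adjusted p = 0.000126) and -0.09 ± 0.17 with GFP, which was not called. The double ratio, the STAU1 change over the GFP change, was 1.30 ± 0.24 (edgeR adjusted p = 0.00932), and it lay between 1.12 and 1.49 with any 1 library left out. A lower change with STAU1 was found at 75.4% of all tested ends, and a lower double ratio at 73.4%.

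Its partner in the channel, SEC61B, behaved differently. It had 46.3 and 77.3 CPM in the STAU1 IP libraries against 208 and 164 in the inputs, and 43.7 and 44.2 in the GFP IP against 193 and 169. Both pull-downs lay far below both inputs. The log2 change of SEC61B was -1.59 ± 0.24 with STAU1 (edgeR adjusted p = 0.000252) and -2.04 ± 0.26 with GFP (edgeR adjusted p = 3.95e-05). The double ratio, 0.45 ± 0.35, was not called (edgeR adjusted p = 0.656), and it was near the median of all tested ends, 0.27.

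The 2 ends of SSR3, a TRAP subunit, had the highest double ratio of the set and one of the 3 negative ones. SSR3 distal had 106 and 103 CPM in the STAU1 IP libraries (703 and 647 reads) against 26.8 and 32.4 in the inputs (144 and 279 reads), and 46.4 and 30.0 in the GFP IP (68 and 42 reads) against 41.9 and 39.0. SSR3 proximal had 175 and 155 CPM in the STAU1 IP against 399 and 424 in the inputs, and 251 and 186 in the GFP IP against 353 and 555. The distal end was thus above its input with STAU1 and overlapped it with GFP, whereas the proximal end was below its input with both.

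SSR3 distal rose by 1.82 ± 0.27 on the log2 scale with STAU1 (edgeR adjusted p = 0.000167), had -0.08 ± 0.28 with GFP and a double ratio of 1.90 ± 0.38 (edgeR adjusted p = 0.0176), between 1.66 and 2.27 with any 1 library left out. Lower values were held by 82.7% of all tested ends with STAU1 and by 80.9% in the double ratio. The lower STAU1 inputs of SSR3 distal (log2 -0.45 ± 0.26 against the GFP inputs, not called) enter its double ratio. SSR3 proximal was lower with both, at -1.32 ± 0.22 with STAU1 (edgeR adjusted p = 0.000509) and -1.05 ± 0.22 with GFP (edgeR adjusted p = 0.00356). Its double ratio, -0.27 ± 0.30, was not called. SSR2, the other TRAP subunit, had 732 and 680 CPM in the STAU1 IP against 676 and 784 in the inputs, overlapping groups with a log2 change of -0.05 ± 0.18. Its GFP IP libraries, at 430 and 507 CPM, lay below the GFP inputs at 568 and 743, but -0.48 ± 0.18 did not pass the test (edgeR adjusted p = 0.122). Without a filter on low counts, and without either STAU1 input replicate or GFP input replicate 1, this value was called.

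**Figure D2:**
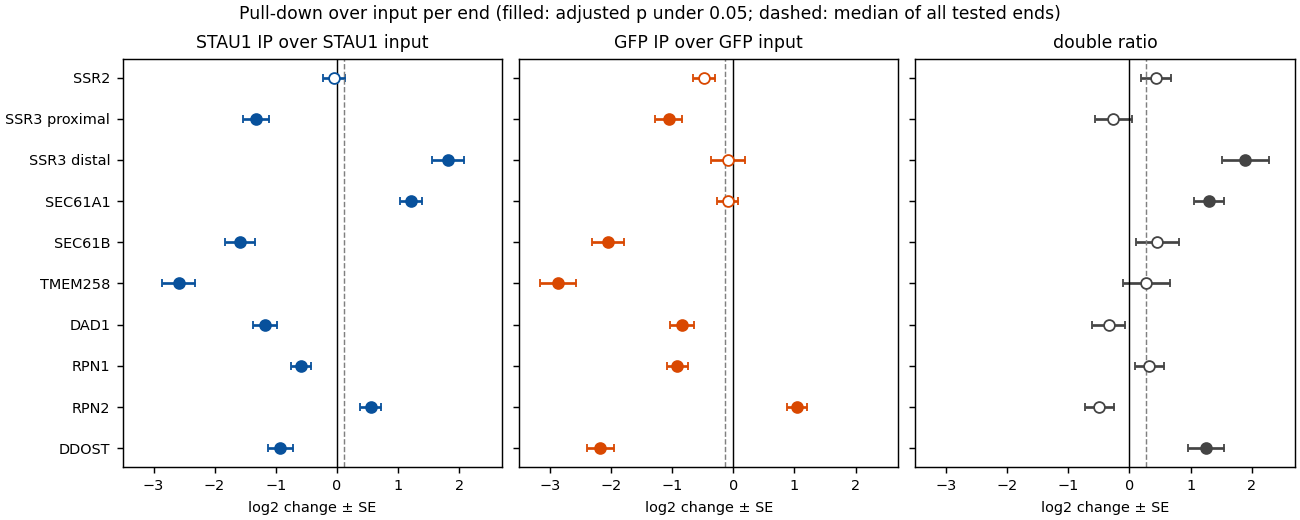
Log2 change over input of each of the 10 ends (rows) with STAU1 and with GFP, and the double ratio; points are edgeR estimates, bars SE, filled points have an adjusted p under 0.05, the dashed line is the median of all tested ends. TMEM258 and SEC61B lie farthest left in the STAU1 panel and, with DDOST, in the GFP panel, while SSR3 distal, SEC61A1 and DDOST are filled in the double ratio.

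The share of SSR3 transcripts that ended at the distal site shows the isoform difference directly. In the STAU1 IP libraries 37.7% and 40.1% of SSR3 reads were distal, against 6.30% and 7.10% in the STAU1 inputs. The GFP IP libraries had 15.6% and 13.9%, on 68 and 42 distal reads, and the GFP inputs 10.6% and 6.57%. Both STAU1 IP libraries stood far above the other pull-down and input libraries, and the GFP IP libraries stood above all 4 inputs. In a fit of both ends' counts across 2785 pairs of neighbouring ends, the distal-over-proximal ratio of SSR3 rose by a log2 of 3.15 ± 0.46 from input to STAU1 pull-down (SE; edgeR, adjusted p = 0.0181), the sixth smallest p of all pairs. In this comparison 0.826% of pairs were called higher and 0.18% lower, the median pair was at 0.37, and 95.4% of pairs had a lower value than SSR3. With GFP the value was 0.92 ± 0.47 (edgeR adjusted p = 0.519), and 0% of pairs were called in either direction (155 higher and 134 lower at an unadjusted p under 0.05).

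The difference between the pull-downs in this isoform ratio, 2.23 ± 0.65, did not pass the test (edgeR adjusted p = 0.484), and no pair of the 2785 did in either direction, 0% higher and 0% lower (177 and 61 at an unadjusted p under 0.05). So the test called the distal end itself, but not the isoform ratio, as different between STAU1 and GFP. A lower difference in this ratio was found at 84.1% of pairs, and the median pair was at 0.32. The STAU1 value stayed between 3.06 and 3.24 with any 1 library left out, but its adjusted p was 0.192 without STAU1 IP replicate 1, 0.181 without STAU1 IP replicate 2 and 0.0505 without GFP IP replicate 2 (edgeR). A smaller site between the windows, at 156259106, had 33 and 36 reads in the STAU1 IP, 0 and 42 in the STAU1 inputs, 7 and 7 in the GFP IP and 99 and 59 in the GFP inputs. It was counted with neither end.

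Among the oligosaccharyltransferase subunits, RPN2 was the only one above input, and it was so in both pull-downs. It had 5042 and 3864 CPM in the STAU1 IP against 2855 and 3220 in the inputs, and 6920 and 7311 in the GFP IP against 2901 and 3998. The GFP pull-down stood highest, with no overlap with any other group. The log2 change was 0.55 ± 0.17 with STAU1 (edgeR adjusted p = 0.0484) and 1.04 ± 0.17 with GFP (edgeR adjusted p = 0.000392). The STAU1 call was lost without STAU1 IP replicate 1 (0.36, edgeR adjusted p = 0.405), without STAU1 input replicate 1 (0.41, edgeR adjusted p = 0.246) and without GFP IP replicate 1 (0.51, edgeR adjusted p = 0.0601). The double ratio of RPN2, -0.49 ± 0.24, was the lowest of the 10 and was not called (edgeR adjusted p = 0.393). Without GFP input replicate 2 it was -0.70 and called (edgeR adjusted p = 0.0473).

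RPN1, a subunit that contacts the substrates of the enzyme, showed the opposite sign. It had 584 and 521 CPM in the STAU1 IP against 770 and 890 in the inputs, and 486 and 478 in the GFP IP against 810 and 1003. Both pull-downs were below both inputs, with a log2 change of -0.59 ± 0.17 with STAU1 (edgeR adjusted p = 0.0361) and -0.91 ± 0.17 with GFP (edgeR adjusted p = 0.00158). The STAU1 call was lost with library totals as the scaling (-0.36, edgeR adjusted p = 0.149), with single sites (-0.50, edgeR adjusted p = 0.105), without either STAU1 IP replicate (adjusted p = 0.0662 and 0.224) and without STAU1 input replicate 2 (adjusted p = 0.147). Its double ratio, 0.32 ± 0.24, was not called.

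DAD1 and TMEM258, both small membrane proteins, were also lower in both pull-downs. DAD1 had 305 and 219 CPM in the STAU1 IP against 652 and 533 in the inputs, and 289 and 302 in the GFP IP against 523 and 532. Its log2 change was -1.18 ± 0.19 with STAU1 (edgeR adjusted p = 0.000423) and -0.84 ± 0.19 with GFP (edgeR adjusted p = 0.00752), and the GFP call was lost with library totals as the scaling (-0.48, edgeR adjusted p = 0.149). TMEM258 had the largest fall of the 10 ends in both pull-downs, with 19.1 and 17.4 CPM in the STAU1 IP (127 and 109 reads) against 131 and 89.4 in the inputs, and 19.1 and 32.1 in the GFP IP (28 and 45 reads) against 199 and 173. The log2 change was -2.59 ± 0.27 with STAU1 (edgeR adjusted p = 3.89e-06) and -2.86 ± 0.29 with GFP (edgeR adjusted p = 3.1e-06). Among all tested ends, 4.06% and 6.51% had lower values. The double ratios of DAD1, -0.34 ± 0.27, and of TMEM258, 0.28 ± 0.39, were not called.

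DDOST, the subunit also known as OST48, was below input in both pull-downs but less so with STAU1. It had 85.0 and 100.0 CPM in the STAU1 IP against 154 and 197 in the inputs, and 58.0 and 54.2 in the GFP IP (85 and 76 reads) against 252 and 256. The log2 change was -0.93 ± 0.20 with STAU1 (edgeR adjusted p = 0.00627) and -2.18 ± 0.22 with GFP (edgeR adjusted p = 3.19e-06), and the double ratio of 1.25 ± 0.30 was called higher (edgeR adjusted p = 0.0412). A lower double ratio was found at 72.5% of all tested ends. Neither pull-down held more DDOST than its input. The double ratio also takes in the lower STAU1 inputs of DDOST, at a log2 of -0.53 ± 0.20 against the GFP inputs (not called). The double-ratio call was lost with RLE size factors (1.13, edgeR adjusted p = 0.0506), library totals (1.12, adjusted p = 0.0588) and single sites (1.35, adjusted p = 0.0527). It was also lost without STAU1 IP replicate 2 (adjusted p = 0.0871), GFP IP replicate 1 (0.0875), GFP IP replicate 2 (0.0622) or STAU1 input replicate 1 (0.165), and the value lay between 1.09 and 1.49 with any 1 of the 8 libraries left out. The fall with STAU1 itself was not called without STAU1 IP replicate 1 (adjusted p = 0.0775) or STAU1 input replicate 2 (0.0614).

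In the double ratio, then, 3 of the 10 ends were called higher and 0 lower, against 0.962% and 0.335% of all tested ends and 2.96% and 0.902% of the abundant ones. The median double ratio of the 10 ends was 0.38, against 0.27 over all tested ends and 0.20 over the abundant ones. Apart from SSR3 distal, SEC61A1 and DDOST, the members lay between -0.49 and 0.45. The 3 other ends in the table whose profile over the 8 libraries was most like the mean profile of the members were at 5171097, 23932799 and 21309542 on the plus strands of chromosomes 20, 3 and 19 (Pearson r = 0.990, 0.990 and 0.989), among 8194 ends compared. Within the set, DDOST (r = 0.98) and RPN1 (r = 0.97) followed the mean of the other members most closely, and RPN2 (r = -0.88), SSR3 distal (-0.47) and SEC61A1 (-0.36) ran against it. These values describe 8 libraries that fall into 4 groups.

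The fractions compare the scaled level of these mRNAs in polysomes with that in cytoplasm, in WT and in STAU1-KO cells. The ratios place an end relative to the other ends and do not measure how much of an mRNA is on polysomes. With 1 library per group there is no replicate check and no test. The 95% intervals come from read counts, treat each read as an independent molecule and leave out variation between preparations. Amplified reads that carry no molecular identifier may copy the same molecule, so the intervals may be too narrow even for counting error. In WT cells 2 of the 10 ends were past 1.5-fold higher in polysomes than in cytoplasm, TMEM258 and SSR3 distal, against 10.6% of the 4785 ends with at least 50 reads in each library, and 3 were past 1.5-fold lower, SSR3 proximal, RPN2 and RPN1, against 16%. In STAU1-KO cells 1 was higher, SSR3 distal (8.92% of all ends), and 0 lower (12.4%). The median log2 ratio of the 10 ends was -0.19 in WT and -0.02 in STAU1-KO, against -0.05 and 0.01 over all ends.

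SSR3 showed the isoform contrast again in untransfected cells. The distal end had 67.5 CPM in WT cytoplasm and 142 in WT polysomes (170 and 419 reads), and 66.4 and 128 in STAU1-KO (208 and 504 reads). The proximal end had 484 CPM in WT cytoplasm and 274 in WT polysomes, and 280 and 216 in STAU1-KO. In both genotypes the distal end was higher in polysomes than in cytoplasm and the proximal end lower, while the proximal end remained the more abundant one in all 4 libraries.

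The log2 ratio of polysome to cytoplasm at SSR3 distal was 1.07 in WT (0.81 to 1.33) and 0.95 in STAU1-KO (0.72 to 1.19), above 98.7% and 98.4% of all ends. At SSR3 proximal it was -0.82 in WT (-0.95 to -0.69) and -0.38 in STAU1-KO (-0.52 to -0.24). The distal share of SSR3 reads was 12.2% in WT cytoplasm (exact binomial interval 10.6 to 14.1) and 34.1% in WT polysomes (31.4 to 36.8), and 19.2% (16.9 to 21.6) and 37.3% (34.7 to 40.0) in STAU1-KO. On the log2 scale the distal-over-proximal ratio was 1.89 higher in polysomes in WT (1.60 to 2.18) and 1.33 in STAU1-KO (1.06 to 1.60). Among 688 pairs of ends, 23.5% in WT and 18.3% in STAU1-KO were past 1.5-fold in this direction, and 99.3% and 97.7% had a lower value than SSR3. The polysomal shift of the ratio was smaller in the knockout by 0.56 on the log2 scale (-0.56, -0.95 to -0.17), and 16.3% of pairs had a lower value (15% were past 1.5-fold lower). In cytoplasm the ratio was higher in the knockout by 0.76 (0.45 to 1.08; 17.9% of pairs were past 1.5-fold higher), and in polysomes by 0.20 (-0.03 to 0.44; 13.7% of pairs).

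**Figure D3:**
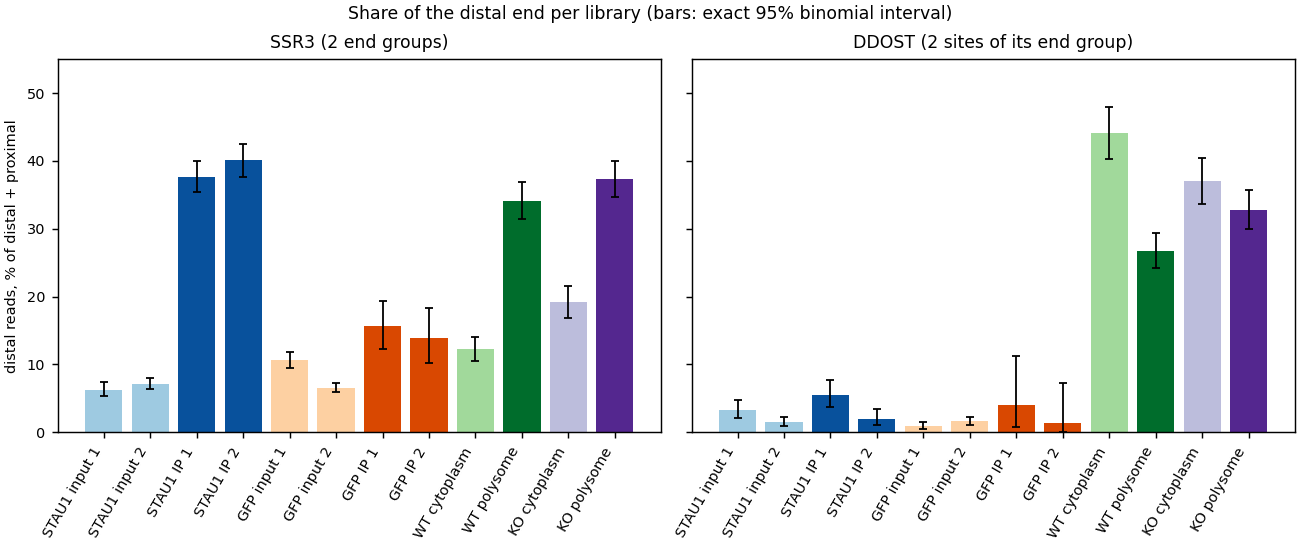
Distal reads as a percentage of distal plus proximal reads for SSR3 (left) and for the 2 main sites of DDOST (right) in all 12 libraries, from 0. Error bars are exact 95% binomial intervals and cover counting error at most. The SSR3 share is highest in the 2 STAU1 IP libraries and the 2 polysome libraries, while the DDOST share is at most 5.51% in the pull-down table and at least 26.7% in the fraction table.

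DDOST held a second isoform contrast, seen after the values were inspected. Its downstream site took between 0.928% and 5.51% of the reads of its 2 main sites in the 8 pull-down and input libraries, with a median of 1.80%, but between 26.7% and 44.1% in the 4 fraction libraries. The 2 tables do not overlap in this share. A minor site of RPN1, at 128338860, also differed, with 0.098% of its end's reads in the pull-down table and 4.04% in the fraction table. The tables come from different cell preparations and were deposited as separate tables of site clusters, and whether either accounts for the gap at DDOST was not tested. Within the fractions the direction was opposite to that of SSR3: the distal share was 44.1% in WT cytoplasm (40.2 to 48.0) and 26.7% in WT polysomes (24.1 to 29.4), and 37.0% (33.6 to 40.5) and 32.8% (30.0 to 35.7) in STAU1-KO. The distal-over-proximal ratio was lower in polysomes by a log2 of -1.11 in WT (-1.41 to -0.82) and -0.26 in STAU1-KO, with an interval of -0.54 to 0.01.

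For DDOST as a whole the polysome-to-cytoplasm ratio was 0.56 in WT (0.42 to 0.70) and 0.13 in STAU1-KO (-0.0046 to 0.26). The WT value was past 1.5-fold with library totals (0.85), 200-nt windows (1.05) and single sites (0.97). At the proximal site alone it was 0.95 in WT (0.77 to 1.13) and 0.23 in STAU1-KO (0.066 to 0.40), and at the distal site -0.16 (-0.40 to 0.074) and -0.03 (-0.26 to 0.20). The counting intervals of the 2 genotypes were apart at the proximal site and overlapped at the distal one, which with 1 library each is no test of genotype.

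TMEM258 had the highest polysome-to-cytoplasm ratio of the set in WT, and it was far lower in the knockout. It had 97.3 CPM in WT cytoplasm (245 reads), 273 in WT polysomes (808 reads), 134 in STAU1-KO cytoplasm (419 reads) and 161 in STAU1-KO polysomes (630 reads). The log2 ratio was 1.49 in WT (1.28 to 1.70), above 99.9% of all ends, and 0.26 in STAU1-KO (0.083 to 0.44), above 72.4%. The difference between genotypes was -1.22 (-1.5 to -0.95), with 0.209% of all ends lower. It was the only member past 1.5-fold in this difference, which 6.81% of ends passed upwards and 4.64% downwards, but DDOST passed it too with 200-nt windows (-0.81) and single sites (-0.72). With 1 library of each kind, a difference between genotypes and one between 4 single preparations cannot be told apart.

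RPN2 and RPN1 were, with SSR3 proximal, the members past 1.5-fold lower in WT polysomes. RPN2 had 2244 CPM in WT cytoplasm and 1287 in WT polysomes, and 1415 and 1021 in STAU1-KO, with log2 polysome ratios of -0.80 (-0.86 to -0.74) and -0.47 (-0.53 to -0.41). RPN1 had ratios of -0.70 in WT and -0.39 in STAU1-KO, and SSR2 -0.35 and -0.25. SEC61A1, the member most clearly recovered with STAU1, was at -0.23 in WT (-0.33 to -0.13) and -0.17 in STAU1-KO (-0.26 to -0.08), a difference of 0.05 between genotypes (-0.08 to 0.18). SEC61B stood at -0.15 in WT (-0.28 to -0.02) and 0.22 in STAU1-KO (0.076 to 0.36), and DAD1 at -0.03 (-0.14 to 0.078) and 0.37 (0.27 to 0.48). These positions depend on the scaling: with library totals the median of all ends moved to 0.24 in WT and 0.22 in STAU1-KO. SEC61A1 then took a positive sign in both genotypes (0.06 and 0.04) and SEC61B (0.14) and DAD1 (0.26) in WT, and no member was past 1.5-fold lower in WT.

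**Figure D4:**
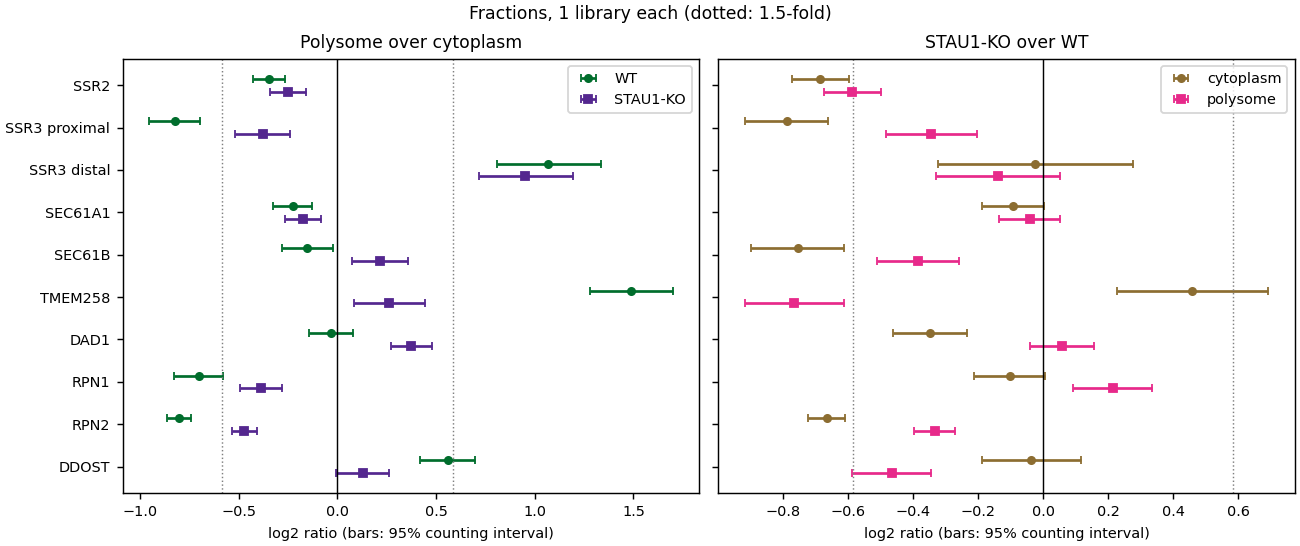
Log2 ratios for the 10 ends (rows): polysome over cytoplasm in WT and STAU1-KO (left) and STAU1-KO over WT in cytoplasm and polysomes (right), 1 library each; bars are 95% counting intervals and dotted lines 1.5-fold. TMEM258 and SSR3 distal stand far to the right in WT, and TMEM258 is the only end above 0 in the cytoplasm comparison, though with library totals or 200-nt windows SSR3 distal, SEC61A1, RPN1 and DDOST are above 0 too.

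Relative to WT, the knockout had lower levels of several of these mRNAs, and none past 1.5-fold higher with TMM scaling. In cytoplasm 4 of the 10 ends were past 1.5-fold lower, SSR3 proximal (log2 -0.79, -0.91 to -0.66), SEC61B (-0.75, -0.90 to -0.61), SSR2 (-0.68, -0.77 to -0.60) and RPN2 (-0.67, -0.72 to -0.61), against 12.7% of all ends, and 0 were past 1.5-fold higher, against 6.85%. TMEM258 was the only end with a positive value, 0.46 (0.23 to 0.69). With library totals, which moved the median of all ends to 0.07, 2 were past 1.5-fold lower and TMEM258, at 0.62, was past 1.5-fold higher, and SSR3 distal, SEC61A1, RPN1 and DDOST took a positive sign. With 200-nt windows and TMM scaling TMEM258, at 0.60, was past 1.5-fold higher too. SSR3 distal (0.15), SEC61A1 (0.04), RPN1 (0.04) and DDOST (0.27) were then positive. With single sites SSR3 distal (0.02) and DDOST (0.13) were positive. In polysomes 2 were past 1.5-fold lower, TMEM258 (-0.77, -0.92 to -0.61) and SSR2 (-0.59, -0.67 to -0.50), against 8.42% of all ends, and 0 higher, against 4.93%. The median of the 10 ends was -0.22 in cytoplasm and -0.34 in polysomes, against -0.09 and -0.05 over all ends. In bulk RNA, a lower level in every cell and its loss from some cells cannot be told apart. SEC61A1 (-0.09 and -0.04) and SSR3 distal (-0.02 and -0.14), the ends with the highest double ratios in the pull-downs, were among the values nearest to 0 in both fractions. DDOST, also called in the double ratio, was at -0.04 in cytoplasm but at -0.47 in polysomes (-0.59 to -0.34).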

How the data were processed

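The submitters' processing notes name STAR and hg19; versions and the clustering of sites are not given. Values are raw counts of reads at each poly(A) site, deposited by the authors with 1 column per library for pull-downs (640413 sites) and fractions (189010 sites). The members and lists were chosen with earlier results of these data known. Members were all reported whatever their values, together with the 3 ends most like them in profile. Gene names come from hg19 positions taken for the 3' ends, not from the tables, and were not checked against an annotation. Other pathway genes were not placed and are not analysed here, and neither is any sequence.

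Sites within 1000 nt of a leading site on a strand were summed, members first and then greedily from the highest site. The test on summed counts was the quasi-likelihood test of edgeR 4.0.16 under R 4.3.3, over 4 groups and 8 libraries with 4 residual degrees of freedom, TMM factors and the filterByExpr filter, with Benjamini-Hochberg adjustment over all 26606 ends. The test also shares the estimate of spread across ends, so its p-values rest on more than these 4 degrees of freedom. Pairs were the 2 highest ends of a run with gaps of at most 5000 nt and a mean of at least 10 reads each, fitted with library, end and end-by-group terms. SE is the log2 change over the root of the quasi-likelihood F. Fractions were compared as TMM-scaled log2 ratios where every library had 50 reads or more at an end (20 for pairs), without a test. The fits were also run on simulated counts with the same spread at every end, which cannot show how reliable the calls made here are. Alternatives were RLE size factors, library totals, DESeq2 1.42.0, other filters, 200-nt windows, single sites, a replicate block and leaving out each library. The background of abundant ends and the split of DDOST were added after seeing the data.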

Additional observations from a re-analysis of the deposited data

Results flagged for a closer look

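The change over input differed between the STAU1 and GFP pull-downs, by the test of that difference, at 3 ends: SSR3 distal (log2 double ratio 1.90), SEC61A1 (1.30) and DDOST (1.25). At these ends the STAU1 inputs stood at a log2 of -0.45, 0.05 and -0.53 against the GFP inputs, none of them called. SEC61B had a higher TMM-scaled level in cytoplasm than in polysomes in WT and the reverse in STAU1-KO, a difference of 0.37 on the log2 scale between genotypes that was not tested, with 1 library each. With library totals as the scaling both genotypes had a positive ratio. A lower difference was found at 82.2% of all ends, and SSR3 proximal (0.44) and DAD1 (0.41) had higher ones. The difference was positive in 7 of the 10 members.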

How the results depend on the processing

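Counts of called members differed from the main ones by at most 1.5 times under all settings for the pull-downs except 1: the double ratio had 0 to 1 members called lower with 1 library left out. SEC61A1 and SSR3 distal kept their calls with STAU1 and in the double ratio under every setting. Signs turned only at values that were not called. SSR2 with STAU1 was 0.0055 with RLE, 0.18 with library totals, 0.065 with a mean of at least 50 reads, 0.036 with single sites and -0.21 to 0.048 with 1 library left out. With GFP, SSR3 distal was 0.089 with RLE, 0.28 with totals, 0.048 with DESeq2, 0.23 with a mean of at least 50 reads, 0.065 with single sites and -0.49 to 0.15 with 1 library left out, and SEC61A1 was 0.078, 0.26, 0.037 and 0.22 in the first 4. With 1 library left out, the double ratio ran from -0.031 to 0.73 at TMEM258 and from -0.58 to 0.071 at SSR3 proximal. Between the inputs SEC61B ran from -0.13 to 0.16, SSR2 from -0.061 to 0.35, SSR3 proximal from -0.47 to 0.21, SEC61A1 from -0.0075 to 0.052, RPN1 from -0.31 to 0.027, RPN2 from -0.43 to 0.058 and the SSR3 isoform ratio from -0.72 to 0.029. The SSR3 isoform ratio in the STAU1 pull-down ran from 3.06 to 3.24 and lost its call without either STAU1 IP replicate or GFP IP replicate 2.

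In the fractions, library totals gave 0 members past 1.5-fold lower in polysomes in WT and 2 higher in STAU1-KO, and, for STAU1-KO over WT, 1 higher and 2 lower in cytoplasm and 1 lower in polysomes. Windows of 200 nt gave 1 higher and 2 lower in cytoplasm, 1 lower in polysomes and 2 lower in the genotype difference (TMEM258 and DDOST), as did single sites for the last. DDOST joined the 2 members past 1.5-fold higher in WT polysomes under all 3 of these settings, giving 3. The cause was not tested.

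Replicate numbers are not stated to pair libraries, and same-numbered deviations correlated by -0.03 (STAU1 IP and input), 0.02 (GFP IP and input), 0.08 (the inputs), 0.10 (STAU1 IP and GFP IP), -0.20 (STAU1 IP and GFP input) and -0.01 (STAU1 input and GFP IP). With the replicate number as a block the SSR3 isoform ratio was 3.15 (edgeR adjusted p = 0.0404), no member call changed, and all ends called in the double ratio went from 256 higher and 89 lower to 423 and 155.

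Over all ends, calls were 1035 higher and 1082 lower with STAU1, 685 and 1362 with GFP and 256 and 89 in the double ratio. With library totals they were 1624 and 709, 1264 and 696, and 189 and 143. With RLE they were 1238 and 1030, 930 and 1036, and 208 and 138. The higher share thus went from 48.9% to 54.6% (RLE) and 69.6% (totals), from 33.5% to 47.3% and 64.5%, and from 74.2% to 60.1% and 56.9%. DESeq2 called 1705 higher with STAU1, 1202 with GFP and 393 (277 lower) in the double ratio. Without a filter 289 and 208 were higher and 47 lower in the double ratio. With a mean of at least 50 reads 1245 were higher with GFP and 338 lower in the double ratio, and with single sites 53. With 1 library left out, higher calls ran from 651 to 2093, from 362 to 985 and from 214 to 1365, and lower calls from 749 to 1485, from 901 to 1970 and from 74 to 342. Pairs called higher in the STAU1 pull-down, 23, were 99 with at least 30 reads, 9 with the replicate block, 14 with leading sites and 0 to 139 with 1 library left out; the 5 called lower were 34, 2, 2 and 0 to 72. With at least 30 reads 9 and 9 pairs were called with GFP, 3 higher in the double ratio and 1 lower between the inputs, against 0 each. Between the inputs 3 ends were higher and 0 lower, 10 and 2 without a filter, 6 higher with the block, and 3 to 180 and 0 to 478 with 1 library left out. The shallow GFP pull-down, with 28 to 85 reads per library at TMEM258, SEC61B, SSR3 distal and DDOST, limits the double ratio there.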
